A study of Mus musculus with 12 samples.

Results

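The colony-stimulating factor (CSF) receptors and their ligands were followed as 8 genes: Csf1r, Csf1, Il34, Csf3r, Csf2ra, Csf2rb, Csf2rb2 and Flt3. They were taken by symbol from the 25904 genes of the expression table, in which all 8 were present. Expression was measured by RNA-seq in 12 libraries of sorted C57BL/6 mouse cells, which form 4 groups of 3. WT microglia came from Tgfbr2fl/fl mice, and Tgfbr2 KO microglia from Cx3cr1CreER/+Tgfbr2fl/fl mice. In the KO cells a tamoxifen-inducible Cre sits on 1 allele of Cx3cr1 and deletes the floxed Tgfbr2, the type II receptor for TGF-beta. All microglia donors received 3 daily subcutaneous injections of 5 mg tamoxifen, and the cells were taken out of brains and spinal cords by sorting 18 to 22 days afterwards. WT and KO macrophages were the progeny of bone marrow with these same genotypes in irradiated Cx3cr1CreER/+R26DTA/+ recipients. Those recipients were given tamoxifen, also 3 injections of 5 mg, 6 weeks after the transplant, which depletes their own microglia through a diphtheria toxin allele. Donor-derived cells found in the CNS were collected 18 to 22 days later. All cells were live, Ly6C-negative and CD11b-positive, but WT cells were gated as F4/80 low and KO cells as F4/80 high. The deletion, the gate and the CreER allele therefore cannot be told apart in a comparison of KO with WT. Sex-linked genes of the microglia pools also moved with genotype, as given further below. Pools of 1 to 5 mice made up each library, ages were not given in the labels, and macrophage groups differ from microglia groups also by irradiation and transplant.

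CSF1 receptor, encoded by Csf1r, is a receptor tyrosine kinase on which microglia and most tissue macrophages depend for survival, and it has separate ligands, CSF1 and IL-34. In the brain, IL-34 is made mainly by neurons and CSF1 mainly by glial cells, microglia among them. The receptor for GM-CSF is built from a ligand-binding alpha chain (Csf2ra) and a signalling beta chain (Csf2rb) that is shared with the receptors for IL-3 and IL-5. Mice carry a second beta chain gene, Csf2rb2, whose product serves IL-3. Csf3r encodes the receptor for G-CSF, best known from granulocytes, and Flt3 encodes a receptor tyrosine kinase of blood progenitors and dendritic cells. TGF-beta signals through Tgfbr2 to Smad transcription factors and is needed for the microglial expression programme.

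The start-site regions of Csf1, Csf3r and Csf2ra are shown because these genes had the widest KO-to-WT differences in microglia outside Csf1r, in both directions. Sequences are from RefSeq on GRCm38.p6, in which 5 of the 8 genes matched, and run from 250 bases before to 50 bases after the start site, 5′ to 3′ on the gene's strand. Capitals mark every match to the Smad core CAGAC (or GTCTG on the other strand) and the PU.1 core GAGGAA (or TTCCTC). PU.1 is the myeloid transcription factor encoded by Spi1.
Csf1, chr3:107760420-107760719, minus strand: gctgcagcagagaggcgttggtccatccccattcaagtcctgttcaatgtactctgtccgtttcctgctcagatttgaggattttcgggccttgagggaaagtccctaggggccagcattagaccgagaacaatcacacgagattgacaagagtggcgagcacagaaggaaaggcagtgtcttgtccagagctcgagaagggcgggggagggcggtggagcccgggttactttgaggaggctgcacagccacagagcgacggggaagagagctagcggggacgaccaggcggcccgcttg
Csf3r, chr4:126024409-126024708, plus strand: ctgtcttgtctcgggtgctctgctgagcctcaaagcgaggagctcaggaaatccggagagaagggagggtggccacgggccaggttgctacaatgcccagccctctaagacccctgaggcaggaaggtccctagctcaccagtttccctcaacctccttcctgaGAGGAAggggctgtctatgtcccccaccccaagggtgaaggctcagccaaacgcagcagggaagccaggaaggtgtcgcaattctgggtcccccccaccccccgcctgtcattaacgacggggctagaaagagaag
Csf2ra, chr19:61228369-61228668, minus strand: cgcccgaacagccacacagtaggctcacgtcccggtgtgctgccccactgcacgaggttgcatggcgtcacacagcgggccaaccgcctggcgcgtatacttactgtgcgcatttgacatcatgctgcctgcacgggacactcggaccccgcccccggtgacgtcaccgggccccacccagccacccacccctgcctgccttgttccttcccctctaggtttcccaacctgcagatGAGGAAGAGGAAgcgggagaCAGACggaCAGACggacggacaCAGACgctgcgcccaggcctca

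The Csf2ra region held 3 Smad cores, at positions 7, 15 and 29 counted from 1 at the start site, and 2 adjoining PU.1 cores, at -14 and -8. The Csf3r region held 1 PU.1 core, at -86, and no Smad core, while neither core was found in the Csf1 window. Among the matched genes not shown, Csf2rb2 held 1 Smad and 2 PU.1 cores and Flt3 1 Smad core. Of 32851 RefSeq promoters of the same length, 49.6% held at least 1 Smad core and 28.3% at least 1 PU.1 core, so these matches describe the letters of the windows and no more.

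The beta chain genes are near copies of each other, which bears on how far their counts can be trusted. Their longest open reading frames, 2691 bases in Csf2rb and 2637 in Csf2rb2, were identical at 95.21% of 2631 aligned bases. The longest identical run spans positions 2083 to 2324 of both coding sequences and is shown because reads from it cannot be assigned to either gene by sequence.
Csf2rb and Csf2rb2: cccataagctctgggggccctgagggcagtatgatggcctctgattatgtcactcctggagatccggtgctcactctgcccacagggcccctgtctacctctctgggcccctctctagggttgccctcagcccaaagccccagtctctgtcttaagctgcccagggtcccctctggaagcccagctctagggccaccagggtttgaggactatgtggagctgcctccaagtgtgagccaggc
Of all windows of 50 bases in the transcripts, 17.09% of those of Csf2rb and 18.82% of those of Csf2rb2 occurred in the other gene. How the authors' counting treated such reads is not given in the sources used here, so both genes' levels are uncertain.

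Values are normalized counts, that is, reads in a gene divided by the library's size factor. Depth was 2615404 to 6364994 reads in genes per library, and 1 read was worth 0.718 to 1.60 normalized counts, so that 3 reads, taken as the floor, came to 2.15 to 4.80. Tests are from limma on the log2(normalized count + 1) scale, log2 differences are given ± SE, and p-values are Benjamini-Hochberg adjusted over 12519 tested genes, with a call below 0.05. Of the 8 genes, 7 passed the filter (a normalized count of 10 or more in 3 libraries); Il34 did not, and Flt3 passed through the WT macrophages alone. Tgfbr2 itself averaged 2898 ± 356 (SD, n = 3) in WT microglia, 2193 ± 100 with KO, and 3303 ± 267 in WT and 2235 ± 209 in KO macrophages, called lower with KO both times. Gene counts do not resolve the deleted exons. Summed microglia markers (6 of 6 measured, Tmem119 and P2ry12 among them) ranged over 49590.0 to 62550.0 in WT microglia, over 2940.0 to 3077 with KO, and over 12410.0 to 13060.0 in WT and 2982 to 4074 in KO macrophages. The cells labelled KO microglia thus hold low levels of their defining markers. Border-associated macrophage markers (6 of 6) ran the other way, with 84.9 to 107.5, 18950.0 to 23290.0, 5906 to 7083 and 16910.0 to 17100.0 in the same order. In bulk samples, fewer cells of a type and less RNA per cell cannot be told apart.

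In KO against WT microglia, Csf1r, Csf1, Csf3r and Csf2rb2 fell and Csf2ra rose, while Csf2rb stayed uncalled. These were 5 of the 7 tested genes, in a comparison in which 42.5% of all tested genes were called (21.9% higher and 20.6% lower). WT and KO libraries were fully apart for 6 of the 7, or 5 of 6 without Flt3, against 55.2% of all tested genes. Flt3 held only 1 to 5 reads per microglia library. In KO against WT macrophages, Csf1r, Csf3r, Csf2rb and Flt3 fell, 4 of 7 tested, against 31.4% of all tested genes (16.0% higher and 15.4% lower). Of these, Flt3 entered the test only through the WT macrophages, where it is high, which leaves 3 of the other 6. They were fully apart for 4 of the 7 genes, or 3 of 6 without Flt3, against 45.2% of all. Scaling to library totals turned the split of called genes in macrophages from 2001 higher and 1933 lower to 1664 higher and 2424 lower, and left the same 4 members lower.

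**Figure D1:**
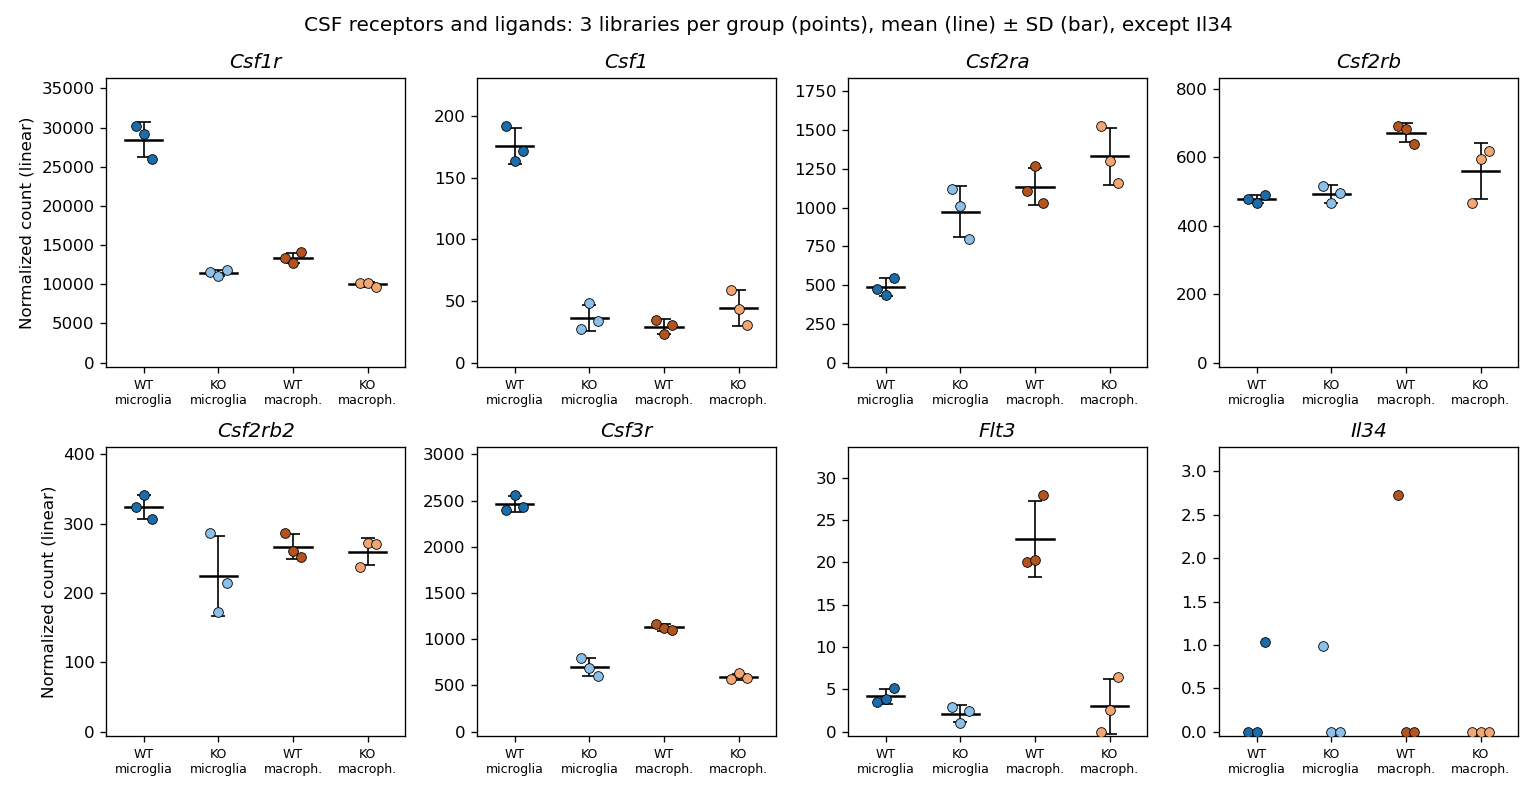
Normalized count (linear axis from 0, a scale of its own per gene) of each of the 8 genes in the 3 libraries of each group, with mean and SD bars except for Il34. Csf1r, Csf1 and Csf3r stand highest in WT microglia, Csf2ra stands lowest there, and Flt3 exceeds 20 in the WT macrophages alone.

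Csf1r (GRCm38 chromosome 18, 61100598 to 61132149, plus strand) had the highest level of the 8 per kilobase of exon in every group. Its normalized counts were 30229.9, 29160.2 and 25954 in WT microglia, against 11530.1, 11035 and 11821 in the KO ones. WT macrophages held 13332, 12771 and 14089, and KO macrophages 10106, 10162 and 9667. Every WT microglia library lay above every other library, and within each origin the KO libraries lay below the WT libraries without overlap. With KO, Csf1r fell by 1.31 ± 0.10 (log2) among microglia (adjusted p = 2.12e-08) and fell by 0.42 ± 0.10 among macrophages (adjusted p = 0.00354). The KO effects differed between the origins by 0.88 ± 0.14 (adjusted p = 1.94e-04). WT macrophages were lower than WT microglia by a log2 difference of -1.08 ± 0.10 (adjusted p = 3.04e-07). After WT microglia, at 28448 ± 2225 (SD, n = 3), the order was WT macrophages at 13398 ± 662, KO microglia at 11462 ± 397 and KO macrophages at 9979 ± 271. WT macrophages and KO microglia, neighbours in that order, did not pass the test against each other (log2 difference -0.22, 95% interval -0.43 to -0.02, adjusted p = 0.0844), nor did KO microglia and KO macrophages (-0.20, -0.40 to 0.01, adjusted p = 0.234). The first of these pairs was called under 5 of 21 alternatives, among them scaling to library totals and leaving out KO macrophage replicate 1 (adjusted p = 0.0392). Exons of Csf1r overlap those of Hmgxb3 on the opposite strand, which averaged 210 normalized counts. Whether the counting used strand is not given in the sources used here.

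Of the ligands of that receptor, Csf1 (chromosome 3, 107741048 to 107760469, minus strand) was measured well in WT microglia only. Its WT microglia libraries held 192, 164 and 172, and its KO microglia libraries 27.5, 48.2 and 33.8. In macrophages the values were 34.6, 22.9 and 30.5 in WT and 59.2, 43.6 and 30.2 in KO. No library outside WT microglia exceeded 59.2, and the WT and KO macrophage values overlapped. Csf1 fell by 2.27 ± 0.26 (log2) with KO in microglia, a 4.83-fold change (adjusted p = 3.58e-06). In macrophages the difference was 0.55 ± 0.26 (95% interval -0.01 to 1.11, adjusted p = 0.124), and without KO macrophage replicate 3 it was 0.79 and called (adjusted p = 0.0302). The KO effects differed by 2.82 ± 0.37 (adjusted p = 4.42e-05), the widest difference between origins among the 7 genes. WT macrophages were below WT microglia by a log2 difference of -2.56 ± 0.26 (adjusted p = 1.44e-06). KO macrophages, KO microglia and WT macrophages, at 44.3 ± 14.5, 36.5 ± 10.6 and 29.3 ± 5.94 (SD, n = 3), did not differ beyond their spread (adjusted p = 0.611 and 0.425 between neighbours in limma).

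Il34 (chromosome 8, 110741829 to 110805924, minus strand) was at or near 0 throughout. WT microglia held 1 read in 3 libraries, KO microglia 1 read, WT macrophages 3 reads, all in 1 library, and KO macrophages 0 reads. All 12 values lie at or under the floor of 3 reads, so no comparison of this gene was made. Neuron markers (8 of 8 measured) were low in these sorted cells, with summed levels of 15.9 to 24.5 in WT and 109 to 144.5 in KO microglia, 31.9 to 55.9 in WT and 77.6 to 140.9 in KO macrophages. Rbfox3, a neuronal nuclear marker, averaged 1.41 in WT and 18.7 in KO microglia. Astrocyte markers (4 of 4) summed to 44.9 to 100.4 and 177 to 248 in WT and KO microglia, and to 37.3 to 61.0 and 115 to 171 in WT and KO macrophages. Astrocytes can also make Csf1, and their part in its levels was not tested.

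Csf3r (chromosome 4, 126024550 to 126044440, plus strand), the G-CSF receptor gene, followed Csf1r. WT microglia held 2397, 2564 and 2434 and KO microglia 801, 691 and 606. WT macrophages held 1169.7, 1118 and 1096 and KO macrophages 568, 631 and 582. KO libraries lay below WT libraries in both origins without overlap. The gene fell by 1.82 ± 0.09 (log2) in microglia (adjusted p = 2.85e-10), 3.54-fold, and fell by 0.93 ± 0.09 in macrophages (adjusted p = 2.32e-06), 1.90-fold. The effects differed by 0.90 ± 0.13 (adjusted p = 1.20e-04). All groups in the order WT microglia, WT macrophages and KO microglia were called different from their neighbour, with WT macrophages against WT microglia at -1.13 ± 0.09 (adjusted p = 1.29e-07) and KO microglia against WT macrophages at -0.70 ± 0.09 (adjusted p = 2.70e-05). KO microglia, at 699.5 ± 97.9 (SD, n = 3), and KO macrophages, at 594 ± 32.8, were not called different (log2 difference -0.23, adjusted p = 0.151), but were without KO microglia replicate 3 (-0.33, adjusted p = 0.0378). Neutrophils are the classical Csf3r-bearing cells. Neutrophil markers (5 of 8 measured) summed to 4.14 to 15.0 in WT and 0 to 21.6 in KO microglia, 0.91 to 7.41 in WT and 0 to 3.20 in KO macrophages. S100a8 was at 0 in 9 of the 12 libraries and Cxcr2 in 7.

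The GM-CSF receptor alpha chain gene, Csf2ra (chromosome 19, 61223957 to 61228429, minus strand), ran opposite to Csf1r. WT microglia libraries held 476, 439 and 549, KO ones 1119, 1011 and 795. The WT macrophage libraries held 1107, 1268 and 1031 and the KO macrophage libraries 1529, 1305 and 1162. All WT microglia libraries lay below all others, and WT and KO macrophages overlapped. Csf2ra rose by 0.99 ± 0.13 (log2) with KO in microglia, 1.98-fold (adjusted p = 1.98e-05). In macrophages the KO difference was 0.23 ± 0.13 (95% interval -0.06 to 0.51, adjusted p = 0.216). The KO effects differed by -0.76 ± 0.19 (adjusted p = 0.00784). WT macrophages exceeded WT microglia by 1.22 ± 0.13 (adjusted p = 3.12e-06). Between the KO groups, macrophages exceeded microglia by 0.46 ± 0.13 (adjusted p = 0.0404), a call that 10 of 21 alternatives did not keep. It was lost when KO microglia replicate 2 or 3 (0.49 and 0.32), KO macrophage replicate 1 or 2 (0.35 and 0.47), WT microglia replicate 1 or WT macrophage replicate 1 was left out (0.46 in both), with adjusted p up to 0.191.

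The signalling beta chain, Csf2rb (chromosome 15, 78325752 to 78353847, plus strand), moved little. WT microglia held 479, 466 and 489.6 and KO microglia 517, 466 and 498, which overlap. WT macrophages held 693, 682 and 640.3 and KO macrophages 467, 596 and 618. The WT macrophage libraries were the 3 highest of the 12. The KO difference in microglia was 0.04 ± 0.10 (95% interval -0.17 to 0.25, adjusted p = 0.763). In macrophages Csf2rb fell by 0.27 ± 0.10 on the log2 scale (adjusted p = 0.0486), close to the threshold, and 15 of 21 alternatives lost that call, with adjusted p from 0.0161 to 0.192 over all of them. The difference was -0.15 without KO macrophage replicate 1 (adjusted p = 0.192) and -0.25, -0.26 and -0.30 without WT macrophage replicates 1, 2 and 3 (adjusted p = 0.140, 0.116 and 0.0635). Leaving out any 1 of the 6 microglia libraries kept it at -0.27 but widened its error (adjusted p from 0.0557 to 0.0623). WT macrophages exceeded WT microglia by 0.49 ± 0.10 (adjusted p = 0.00102). KO macrophages and KO microglia were not called different (0.17 ± 0.10, adjusted p = 0.321). Without KO macrophage replicate 1, KO macrophages were called above KO microglia (0.30, adjusted p = 0.0171) and above WT microglia (0.34, adjusted p = 0.00167).

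Its near copy Csf2rb2 (chromosome 15, 78282507 to 78305721, minus strand), whose product serves the IL-3 receptor, held 324, 341 and 306 in WT microglia, against 287, 172 and 215 with KO. The macrophage values were 287, 261 and 252 in WT and 237, 271 and 270.0 in KO. WT microglia libraries were the 3 highest of the 12, and KO microglia had the widest spread, at 224 ± 58.0 (SD, n = 3). Csf2rb2 fell by 0.56 ± 0.14 (log2) with KO in microglia (adjusted p = 0.00562), and the macrophage difference was -0.04 ± 0.14 (95% interval -0.35 to 0.27, adjusted p = 0.867). The difference of the KO effects was 0.52 ± 0.20 and was not called (adjusted p = 0.0767), but was without KO microglia replicate 1 (0.71, adjusted p = 0.00668) or KO macrophage replicate 1 (0.58, adjusted p = 0.0417). No neighbouring groups in the order WT microglia, WT macrophages, KO macrophages and KO microglia were called different in limma (adjusted p = 0.140, 0.867 and 0.364). Without KO microglia replicate 1, KO microglia were called below KO macrophages (macrophages higher by 0.43, adjusted p = 0.0489) and below WT macrophages (-0.47, adjusted p = 0.0101).

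Flt3 (chromosome 5, 147330741 to 147400489, minus strand) was found at low counts in 1 group. WT macrophages held 20.0, 20.3 and 28.0, from 72 reads in all. WT microglia held 3.53, 3.87 and 5.18 (12 reads), KO microglia 2.95, 0.98 and 2.41 (7 reads) and KO macrophages 0, 2.62 and 6.46 (12 reads). The 3 WT macrophage libraries exceeded the other 9 without overlap. The KO difference in macrophages was -2.97 ± 0.62 (adjusted p = 0.001997) and the WT macrophage to WT microglia difference 2.19 ± 0.62 (adjusted p = 0.0109). Without any 1 of the WT macrophage libraries the gene did not pass the filter. The microglial values gave -0.78 ± 0.62 (adjusted p = 0.344), and the difference of the KO effects, -2.19 ± 0.88, was not called (adjusted p = 0.0811). It was called without KO macrophage replicate 3 (-2.85, adjusted p = 0.0187) and in 2 other alternatives, with a pseudocount of 10 (-1.12) and scaled to library totals (-1.61). Dendritic cell markers (6 of 6 measured) summed to 30.04 to 41.9 in WT and 91.2 to 121 in KO macrophages, and to 32.1 to 44.9 in WT microglia and 116.6 to 152 with KO. Of these 6, Ccr7 was at 0 in 10 libraries and Xcr1 in 6, while Clec9a, Zbtb46 and Cd209a were called in microglia. Mean Cd209a was 18.85 in KO against 1.41 in WT microglia (adjusted p = 0.00123 in limma), with no call in macrophages (adjusted p = 0.221). No WT library exceeded 8.90 for this gene, so it passed the filter only through KO libraries. Bcl11a, not tested, ran the other way. Its KO means were 2.83 (microglia) and 3.32 (macrophages), close to the floor, against WT means of 14.1 and 7.86. Clec9a rose from 3.98 to 63.1 in macrophages and from 0.72 to 6.40 in microglia with KO (adjusted p = 1.05e-05 and 7.07e-04 in limma). It passed the filter only through the KO macrophages, where it is high, at 53.1 to 78.5. No library of the other groups exceeded 6.88. In KO microglia it held 5.89 to 6.88, where the floor of 3 reads came to 2.41 to 2.95. In WT microglia it held 0 to 1.29, under the floor. Zbtb46 rose from 21.9 to 107.2 in microglia (adjusted p = 9.73e-05) and averaged 18.9 in WT and 31.6 in KO macrophages (adjusted p = 0.279). Their part in the Flt3 differences was not tested. Among progenitor markers, 2 of 4 were measured: Kit had 13 reads in all 12 libraries, while Cd34 stood at 111 to 154 in WT macrophages, 694 to 936 in WT microglia, 0 to 2.95 in KO microglia and 24.0 to 51.0 in KO macrophages.

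**Figure D2:**
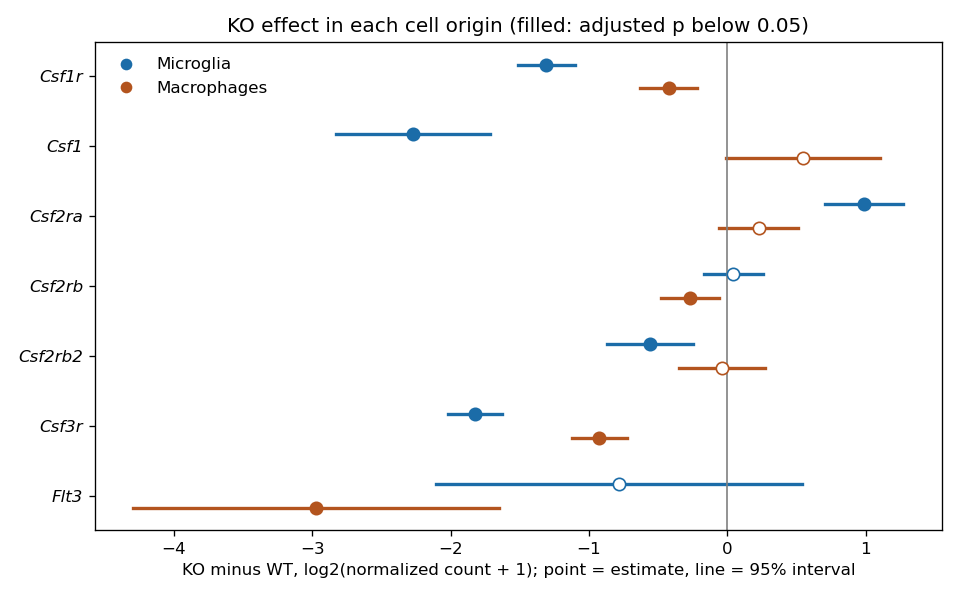
KO minus WT difference on the log2(normalized count + 1) scale for the 7 tested genes, with 95% intervals, in microglia (blue) and macrophages (brown); filled points have an adjusted p below 0.05. Csf1r and Csf3r lie further below 0 in microglia than in macrophages, Csf1 lies below 0 in microglia and at 0.55 in macrophages, and Csf2ra lies further above 0 in microglia.

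The KO effects themselves were thus compared between origins in 1 model. Of the 7 genes, 4 were called, Csf1r, Csf1 and Csf3r with a positive and Csf2ra with a negative difference (macrophages minus microglia), against 25.8% of all tested genes (13.0% positive and 12.9% negative). For each of the 4, the effect in macrophages was either smaller in the same direction (Csf1r, Csf3r) or not called (Csf1, Csf2ra).

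WT macrophages against WT microglia compares the cell origins with Tgfbr2 intact, together with the irradiation and transplant that the macrophages went through. Csf2ra, Csf2rb and Flt3 were higher and Csf1r, Csf1 and Csf3r lower in the macrophages, 6 of 7 tested, against 39.4% of all tested genes (19.2% higher and 20.2% lower). Without Flt3 this was 5 of 6. The groups were fully apart for 7 of the 7, or 6 of 6 without Flt3, against 53.9% of all tested genes. Scaled to library totals, the called genes went from 2398 higher and 2532 lower to 2714 and 2152. This comparison shares its WT microglia with the comparison of KO with WT microglia, so their values are set side by side only: Csf1r -1.08 and -1.31, Csf1 -2.56 and -2.27, Csf3r -1.13 and -1.82, Csf2ra 1.22 and 0.99, Csf2rb 0.49 and 0.04, Csf2rb2 -0.28 and -0.56, Flt3 2.19 and -0.78. KO microglia against WT macrophages gave 3 calls of 7, all lower (Csf2rb, Csf3r and Flt3), against 35.1% of all tested genes (16.1% lower). Without Flt3 this was 2 of 6. For 4 genes, or 3 of 6 without Flt3, the groups were fully apart, against 53.1%. The called genes there were 2378 higher and 2011 lower, or 1927 and 2603 when scaled to library totals.

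KO macrophages against KO microglia gave 1 call of 7, Csf2ra at the values above, against 10.5% of all tested genes (5.45% higher and 5.05% lower). Fully apart were 2 of the 7, Csf1r and Csf2ra, against 27.1% of all. Intervals of the other log2 differences were -0.40 to 0.01 for Csf1r, -0.30 to 0.82 for Csf1, -0.04 to 0.38 for Csf2rb, -0.07 to 0.55 for Csf2rb2, -0.42 to -0.03 for Csf3r and -1.32 to 1.33 for Flt3. KO macrophages against WT microglia gave 4 calls of 7, with Csf2ra higher and Csf1r, Csf1 and Csf3r lower, against 43.9% of all tested genes (22.1% higher and 21.9% lower). For 5 of the 7 genes these groups were fully apart, against 50.3%.

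Compared per kilobase of exon, Csf1r stood at 4927 normalized counts in WT microglia, rank 22 of 12473 genes, and at 1985, 2320 and 1728 in KO microglia, WT macrophages and KO macrophages (ranks 46, 32 and 56). Csf3r was the next of the family in WT microglia, at 683 per kilobase (rank 137), ahead of Csf2ra at 170 (rank 742). In the other groups this order was turned. Csf2ra reached 339.5 in KO microglia, 395.5 in WT and 464 in KO macrophages, against 194, 313 and 165 for Csf3r. The beta chains lay between 47.4 and 92.3 per kilobase in every group. Csf1 dropped from 33.3 per kilobase in WT microglia to between 5.55 and 8.40 elsewhere.

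Ratios between members within a library do not depend on how libraries were scaled. The Csf2ra to Csf2rb ratio of normalized counts, alpha to beta chain, was 0.99, 0.94 and 1.12 in WT microglia, against 2.17, 2.17 and 1.60 with KO. In macrophages it was 1.60, 1.86 and 1.61 in WT and 3.27, 2.19 and 1.88 in KO. WT microglia thus lay below every other library, and KO macrophages above WT macrophages, by little for replicate 3. The Csf1r to Csf2ra ratio averaged 59.1 ± 10.3 (SD, n = 3) in WT microglia, 12.03 ± 2.48 with KO, and 11.9 ± 1.80 in WT and 7.57 ± 0.87 in KO macrophages. Csf2rb to Csf2rb2 averaged 1.48 ± 0.12, 2.28 ± 0.46, 2.53 ± 0.10 and 2.15 ± 0.16 in that order. How often ratios of other gene pairs leave groups without overlap was not computed. For single genes, 27.1% to 55.2% of those tested did so in the same comparisons of groups. Over 12 comparisons of these 3 ratios on the log2 scale, which share groups and genes, 10 had groups without overlap. Each of these had an exact two-sided permutation p of 0.1 (adjusted p = 0.12), the smallest that 3 libraries against 3 allow, so none could pass the threshold. The remaining pair of comparisons were Csf2rb to Csf2rb2 (exact p = 0.8) and Csf2ra to Csf2rb (exact p = 0.4), both between the KO groups. A Csf1 to Il34 ratio was not formed, as Il34 was at or under the floor.

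**Figure D3:**
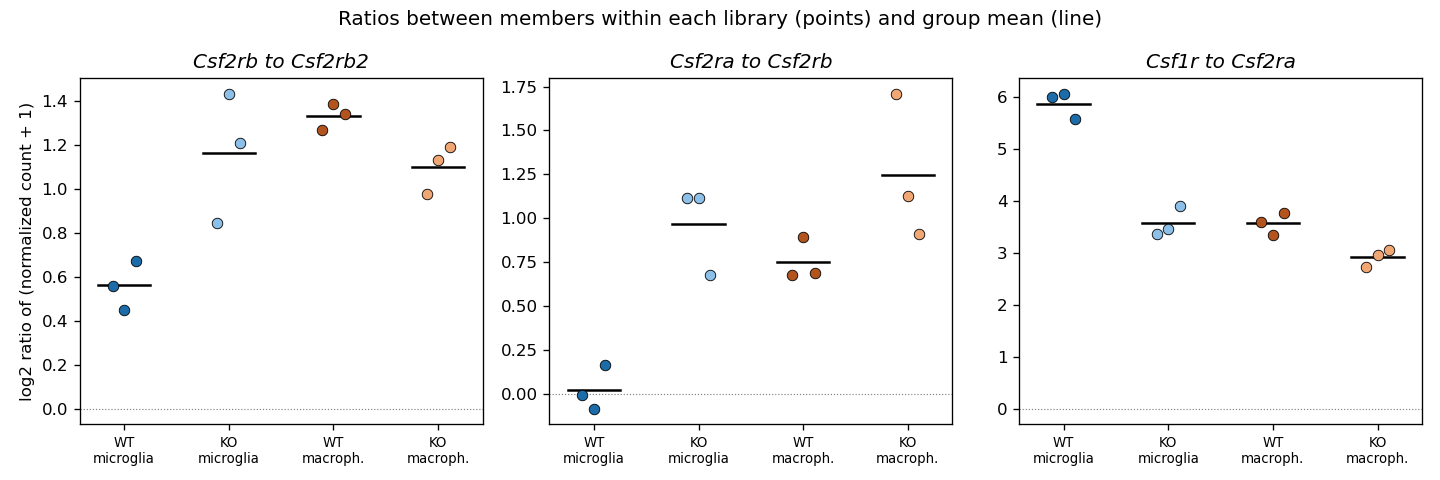
Log2 ratio of (normalized count + 1) between pairs of members in each of the 12 libraries, with the group mean as a line and a dotted line at 0 for equal counts. WT microglia stand apart in all 3 panels, with the lowest Csf2rb to Csf2rb2 and Csf2ra to Csf2rb ratios and the highest Csf1r to Csf2ra ratio.

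The genes whose log2 values were most like each member over the 12 libraries were looked up among 6559 genes with a mean of at least 100 in some group. The 12 libraries form 4 groups, so Pearson's r here mainly reflects the 4 group levels and is given as a description. For Csf1r they were Cst3, the protease inhibitor cystatin C (r = 0.993), Dip2b (0.993) and the organic anion transporter gene Slco2b1 (0.989). For Csf3r they were Rhoq (0.991), Bin1 (0.990) and Frmd4a (0.990). For Csf1 they were Csmd3 (0.966), Adamts16 (0.962) and Arf2 (0.962). Csmd3 averaged 2284 in WT microglia and 2.31 to 5.86 in the other groups, and Adamts16 246 and 0.66 to 1.60, far steeper than Csf1. For Csf2ra they were the histone methyltransferase gene Ezh2 (0.985), the immunoproteasome subunit gene Psmb9 (0.976) and the lysozyme gene Lyz2 (0.974). Csf2rb was most like Ap1s2 (0.967), Slk (0.946) and Tceanc2 (0.935), and Flt3 like Cdk11b (0.972), Zfp638 (0.963) and Cdk8 (0.954). Flt3 held at most 9 reads in each library outside the WT macrophages. Cdk11b averaged 712 in WT macrophages and 519.5 to 594 in the other groups, far flatter than Flt3. Csf2rb2 had the loosest neighbours, Stat3 (0.909), Rgp1 (0.868) and Zfp324 (0.859).

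The other genes of these pathways were described from fixed lists by counts and medians. Of 9 further CSF family ligands and receptor chains, 4 were measured and only Il3ra, the IL-3 receptor alpha chain, was tested. It rose from 7.60 ± 1.51 to 83.2 ± 15.5 (SD, n = 3) in microglia (log2 3.29 ± 0.38, adjusted p = 3.86e-06). Macrophages went from 24.7 ± 16.3 to 74.2 ± 30.04 (1.66 ± 0.38, adjusted p = 0.00382). Like Csf2ra, it was also called higher in WT macrophages than in WT microglia, and its KO effects differed between origins (-1.63 ± 0.54, adjusted p = 0.0370). Csf2, which encodes GM-CSF, had 4 reads in all 12 libraries together. Ptprz1 and Sdc1, whose products can bind IL-34, did not exceed 11.8 and 6.40 in any library.

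Of 22 signal transducers, all tested, 3 rose and 7 fell in KO microglia (median log2 difference -0.07, against -0.01 over all tested genes), and 7 rose and 3 fell in KO macrophages (0.03 against 0.00). Over all tested genes 42.5% were called in microglia and 31.4% in macrophages. In microglia the docking adaptor gene Gab3 rose from 25.3 ± 4.06 to 169 ± 9.40 (adjusted p = 7.91e-10 in limma). Plcg2, a phospholipase downstream of CSF1 receptor, fell from 1645 ± 40.9 to 499 ± 2.65, and Pik3r1, a regulatory subunit of phosphoinositide 3-kinase, from 2066 ± 117.4 to 1110.0 ± 8.54. In macrophages Plcg2 fell from 1343 ± 65.7 to 708 ± 137, while the Src-family kinase gene Fgr rose from 25.4 ± 11.1 to 148.9 ± 50.2 and the Janus kinase gene Jak1 from 904.5 ± 102 to 1262 ± 3.96. Gab2 was called in both origins with opposite signs, 0.32 ± 0.09 in microglia and -0.41 ± 0.09 in macrophages. Stat5b, a transducer of GM-CSF receptor, rose by 0.37 ± 0.09 on the log2 scale in macrophages (adjusted p = 0.00649) and gave 0.00 ± 0.09 in microglia. Its effects differed between origins (adjusted p = 0.0469). Stat5a and Jak2, on the same list, were called in neither origin. Stat5a gave -0.19 ± 0.17 in microglia and 0.16 ± 0.17 in macrophages, and Jak2 -0.10 ± 0.13 and 0.11 ± 0.13.

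Among 14 genes that restrain these receptors, 12 were tested, of which 2 rose and 3 fell in KO microglia (median -0.09, against -0.01 over all tested genes) and 2 rose and 1 fell in KO macrophages (0.03 against 0.00). That is 5 and 3 of 12, against 42.5% and 31.4% of all tested genes called. The docking protein gene Dok2 rose in microglia from 4.64 ± 1.86 to 210.5 ± 4.84 and in macrophages from 6.74 ± 2.004 to 104 ± 10.6 (adjusted p = 5.56e-10 and 1.10e-07). Dok2 passed the filter only through the KO libraries, where it is high, as no WT library exceeded 8.90. It is part of both counts and both medians. Inpp5d, which encodes the phosphatase SHIP1, fell from 5820 ± 303 to 1824 ± 140.8 and from 4400 ± 138 to 2110 ± 263. Socs3, a feedback inhibitor that binds the G-CSF receptor, fell in microglia from 467 ± 77.3 to 53.9 ± 16.2 (log2 -3.12 ± 0.20). It was lower in WT macrophages too, at 97.1 ± 13.7. The adaptor gene Sla fell in microglia from 1134 ± 75.4 to 554 ± 28.5.

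Of 11 transcription factor genes with a known role at the myeloid CSF receptor genes, 10 were tested. In KO microglia Ets2, Maf and Runx1 rose and Cebpa and Irf8 fell (median of the 10, -0.18, against -0.01 over all tested genes). In KO macrophages Egr2, Maf and Ets2 rose and Cebpa and Irf8 fell (median 0.06 against 0.00). Both counts, 5 of 10, stand against 42.5% and 31.4% of all tested genes called. Maf rose from 3533 ± 316 to 7942 ± 300.3 (microglia) and from 3706 ± 143 to 6426 ± 250.1 (macrophages), and Cebpa fell from 1087 ± 252 to 436 ± 46.8 and from 709.7 ± 43.9 to 510.0 ± 28.1. Runx1 reached 2708 ± 143 in KO microglia against 1516 ± 78.8 in WT. Spi1, the gene of PU.1, gave -0.20 ± 0.09 in microglia and 0.18 ± 0.09 in macrophages, neither called (adjusted p = 0.102 and 0.144), although the difference of these effects was (0.38 ± 0.13, adjusted p = 0.0434).

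Of 8 genes that respond to GM-CSF in myeloid cells, 5 were tested. Pparg and Pim1 rose in both KO groups and Car4 in KO macrophages. These calls were 2 and 3 of 5, against 42.5% and 31.4% of all tested genes called. The median was 0.20 in microglia, the value of Bhlhe40, and 1.34 in macrophages, that of Car4 (-0.01 and 0.00 over all tested genes). Car4 went from 9.21 ± 4.17 to 24.5 ± 8.36 (SD, n = 3) in macrophages and gave 0.09 ± 0.37 in microglia (adjusted p = 0.880 in limma). Bhlhe40 was called in neither origin (0.20 ± 0.38 in microglia and -0.48 ± 0.38 in macrophages). Pparg, the nuclear receptor gene that GM-CSF induces in lung macrophages, had 0 reads in WT microglia and 154 ± 20.9 in KO microglia, at least 47.96-fold higher against the floor of 3 reads per library. In macrophages it rose from 8.74 ± 0.46 to 163 ± 7.94 (adjusted p = 1.14e-08). Pparg passed the filter only through the KO libraries, where it is high, as no WT library exceeded 9.10. It is part of both counts and both medians. Without Pparg, Pim1 was the only call of the list in microglia, and Pim1 and Car4 were those in macrophages. The kinase gene Pim1 rose from 23.3 ± 7.61 to 219 ± 23.5 and from 55.8 ± 6.65 to 217.6 ± 45.8. Itgax (CD11c) gave -0.54 ± 0.30 in microglia and -0.50 ± 0.30 in macrophages, neither called (adjusted p = 0.167 and 0.220), while Ccl17, Ccl22 and Cish, with 17, 18 and 70 reads in all libraries, were not tested.

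**Figure D4:**
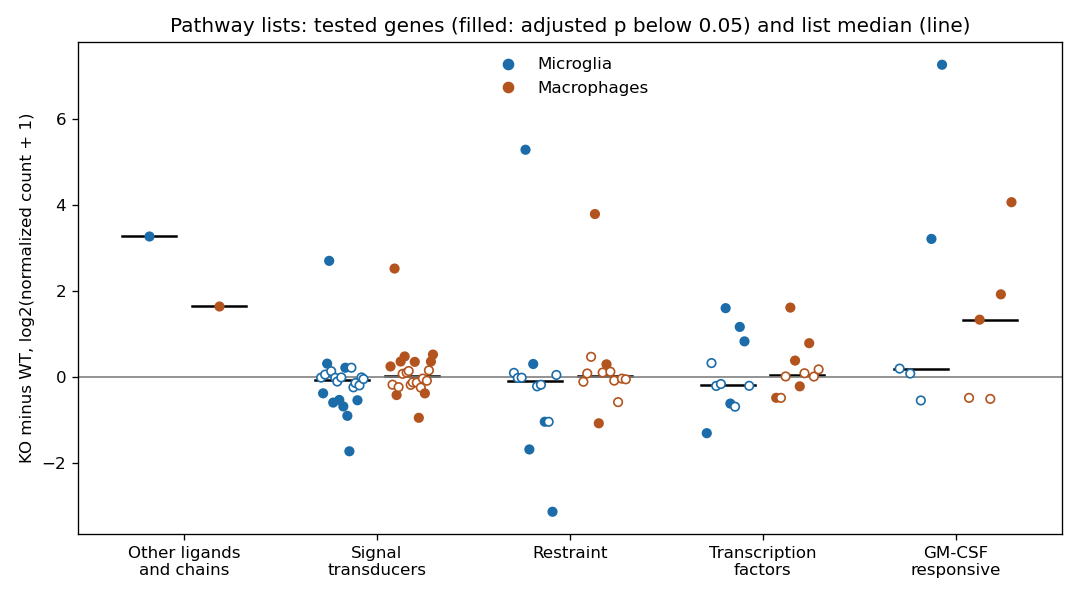
KO minus WT difference on the log2(normalized count + 1) scale of the tested genes of 5 pathway lists in microglia (blue) and macrophages (brown), filled where the adjusted p was below 0.05, with list medians as lines. The medians of the signal transducers, restraint genes and transcription factors lie between -0.18 and 0.06. Single genes lie far above, such as Dok2, Gab3 and Fgr, and far below, such as Socs3, Plcg2 and Inpp5d.

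Library quality and pool make-up moved with some groups. Mitochondrial genes took 3.86% to 4.36% of reads in WT microglia and 5.84% to 7.68% in KO microglia. In macrophages the shares overlapped, with 3.18% to 5.35% in WT and 4.61% to 6.43% in KO. The Y-linked Ddx3y was at 435.7 or more in all 3 KO microglia libraries and in replicate 3 of WT microglia, replicate 3 of WT macrophages and replicate 2 of KO macrophages, and below 9 in the others. With log2 Ddx3y as a covariate, all 5 member calls in KO against WT microglia were kept, while Csf2rb in KO against WT macrophages (adjusted p = 0.0695) and Csf2ra between the KO groups (adjusted p = 0.115) were no longer called.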

How the data were processed

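RNA from sorted mouse cells was sequenced in 12 libraries, 3 per group, made with a stranded total RNA kit for picogram inputs, per the labels' protocols (input above 100 pg, RIN 7.1 to 10). Groups were taken from the sample titles. The replicate numbers used here are not in the labels: they follow the order of the samples within each group. Per the submitters' processing notes, bcl2fastq, CASAVA, STAR and GRCm38 were used; versions, the counting tool, its annotation and strand use were not given in the sources used here. The table deposited by the authors holds log2 values of 25904 genes. Taking 2 to the power of a value and subtracting 1 gave whole multiples of 1 read for 100% of 310848 values (tolerance 0.01 reads), so the deposited log2 values are log2(gene count / size factor + 1), with a pseudocount of 1. A stated gene count is thus a read count recovered from the deposited values.

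A gene was tested if 3 or more libraries held a normalized count of 10 or more (12519 genes; 13385 were not tested). limma 3.58.1 in R 4.3.3 was fitted with 1 mean per group over all 12 libraries (8 residual degrees of freedom, median prior 6.64, trend on, not robust), with 7 contrasts and Benjamini-Hochberg adjustment within each at 0.05. Differences on the log2(value + 1) scale understate changes of low genes. Ratios were compared with exact permutation tests. Floors cover counting error only, since the reads carry no molecular identifiers as far as the sources used here say. The p-values measure spread among 3 pools a group; nothing in the labels pairs pools across groups. Other steps ran on Biopython 1.88, matplotlib 3.10.9, scipy 1.17.1, pandas 2.3.3, numpy 2.4.6 and Python 3.11.15. Symbols and positions are from GENCODE on GRCm38 (25730 identifiers with a symbol, 174 without), and the beta chain sequences are from its transcripts.

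Named genes were the 8 members, Tgfbr2 and other genes of the sort, up to 3 called rises and 3 called falls per pathway list with a mean of at least 50, and the 3 genes most like each member. Of these, the ones printed are a part. Stat5a, Stat5b, Jak2, Spi1, Car4 and Bhlhe40 were named outside that rule, for their role or place in a list. The untested genes and single cell type markers were also named outside it, for their role or as marker values. A gene of the transcription factor list is not reported here and was left out of its counts and medians. Members, lists and tests were chosen with earlier results of these data known. Alternatives were another pseudocount, filters, library scaling, samples in the fit, limma settings, limma voom on the recovered reads, a Ddx3y covariate and leaving out each library.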

Additional observations from a re-analysis of the deposited data

Results flagged for a closer look

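For 4 genes the KO effect differed between macrophages and microglia when the difference itself was tested in limma (adjusted over all tested genes). For Csf1r the difference, macrophages minus microglia on the log2 scale, was 0.88 ± 0.14 (SE, adjusted p = 1.94e-04), from -0.42 in macrophages and -1.31 in microglia. Csf1 differed by 2.82 ± 0.37 (adjusted p = 4.42e-05), from 0.55 and -2.27. Csf2ra differed by -0.76 ± 0.19 (adjusted p = 0.00784), from 0.23 and 0.99. Csf3r differed by 0.90 ± 0.13 (adjusted p = 1.20e-04), from -0.93 and -1.82. Over the alternatives fitted, all 4 kept their sign and stayed called, with differences of 0.84 to 0.95 for Csf1r, 2.46 to 3.07 for Csf1, -0.90 to -0.66 for Csf2ra and 0.80 to 1.00 for Csf3r. Groups of 3 libraries were not screened for single outlying values.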

How the results depend on the processing

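Depth limits Flt3, with at most 9 reads in each library outside the WT macrophages, and Il34, with at most 3 reads in any library. With any WT macrophage library left out, Flt3 did not pass the filter. Leaving out 1 library at a time, some outside the groups compared (those added after seeing the data), gave these numbers of called members: 5 to 5 for KO against WT microglia (5 with all libraries), 2 to 5 for KO against WT macrophages (4) with the 2 in each fit that lacked a WT macrophage library, 5 to 6 for WT macrophages against WT microglia (6), 0 to 2 for KO macrophages against KO microglia (1), 2 to 4 for KO microglia against WT macrophages (3), 4 to 5 for KO macrophages against WT microglia (4) and 4 to 5 for the difference of the KO effects (4). Ratios without overlap were 10 to 11 of 12. The 1 call between the KO groups, Csf2ra, went to 0 when counts were scaled to library totals, when only the compared groups were fitted, without a trend and with the Ddx3y covariate. In each of these limma fits it kept an unadjusted p under 0.05, as 1 member of the 7, and limma voom on the recovered reads gave 1 call. Differences that turned sign without 1 library, none of them called, were Csf2rb2 in KO against WT macrophages (from -0.078 to 0.025, and 0.015 and 0.025 without WT or KO macrophage replicate 1), Flt3 in KO macrophages against KO microglia (from -0.65 to 0.80, with -0.29 without KO microglia replicate 2, and -0.13 and -0.65 without KO macrophage replicates 2 and 3), Flt3 in KO macrophages against WT microglia (from -1.44 to 0.015, the last without KO macrophage replicate 1) and the log2 Csf2rb to Csf2rb2 ratio between the KO groups (from -0.22 to 0.0725, the last without KO microglia replicate 2). The cause was not tested. Csf2rb2 was called in WT macrophages against WT microglia when only those groups were fitted, and in KO macrophages against WT microglia in 3 of 21 alternatives. No paired analysis was possible because the labels give the libraries no replicate numbers.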
